A study of Homo sapiens with 8 samples.

Results

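The regions described here are 7 chromosome segments in which the local background of the FLI1 ChIP-Seq signal was higher in VAL than in OCI-Ly1. They were chosen by measured values, since the segments were drawn where this difference had been seen in the same lists. In GRCh37 they are segment A on chromosome 1 from 165 to 185 Mb, segment B on chromosome 1 from 195 to 215 Mb, segment C on chromosome 1 from 220 to 249.25 Mb, segment D on chromosome 2 from 55 to 75 Mb, segment E on chromosome 8 from 50 to 115 Mb, segment F on chromosome 12 from 40 to 75 Mb and segment G on chromosome 18 from 60 to 78.08 Mb. Their members are the 140741 listed peaks centred in them, of 2331186 listed peaks in 3 libraries. Of these, 75970 are from replicate 2 of OCI-Ly1 (called OCI2 here, with 1107379 peaks listed in all), 17222 from replicate 1 of VAL (VAL1, 237178 in all) and 47549 from replicate 2 of VAL (VAL2, 986629 in all). The segments hold 206 Mb of known sequence, which is 7.69% of the autosomes, and the 5′ ends of 1331 protein coding genes.

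FLI1 occupancy was profiled with a rabbit polyclonal antibody in OCI-Ly1 and VAL, which are established lines of the germinal center B-cell type of diffuse large B-cell lymphoma, each untreated and with 2 replicates. The list of OCI-Ly1 replicate 1 was not used because its 37 intervals mostly span more than 1 Mb, so OCI-Ly1 is represented by 1 library and has no replicate error. The samples of input DNA were left aside. Nothing in the labels states that the replicates came from separate cultures. A difference between them is one between 2 lines, not between groups of lymphomas.

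FLI1 is a transcription factor of the ETS family that is active in blood and endothelial cells, and ETS proteins bind DNA around a GGAA core. In ChIP-Seq, fragments bound by the antibody pile up at the sites of the factor, while all other fragments of the genome form a background. A peak caller estimates this background around each peak and asks whether the pileup at the summit exceeds it. The background depends on how many copies of a stretch the cells carry, on how well reads map to it, on how accessible the chromatin is and on the depth of the library.

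The full ETS motif, which 7 of the 21 strongest sites held at the summit, is shown first, because sequence played no part in the choice of the segments. Each line gives the GRCh37 position and strand of 29 bases centred on the motif near the summit of a peak. The capitals mark this motif, CCGGAAA or CCGGAAG. They are a selection of the strongest peaks of the segments and of its lymphoma genes, among those with the motif within 50 bp of the summit.
METTL18 promoter, segment A, chr1:169764076-169764104, minus strand: gtccctcaaggCCGGAAAgaaagtcgggc
MDM4 promoter, segment B, chr1:204485506-204485534, plus strand: cgtgtgggaggCCGGAAGttgcggcttca
TOMM20 promoter, segment C, chr1:235292157-235292185, minus strand: gttgactgggaCCGGAAGtggcgtgtgct
TRIM67 intron, segment C, chr1:231347339-231347367, plus strand: ccctgccttctCCGGAAAcacctgtctgg
LINC02579 promoter, segment D, chr2:64836600-64836628, minus strand: gccgccggaggCCGGAAGctggggcgccc
C2orf42 promoter, segment D, chr2:70417901-70417929, minus strand: cctacttgggaCCGGAAGtgagcgctcgc
SENP1 promoter, segment F, chr12:48499830-48499858, minus strand: tccgcgcccggCCGGAAAccccttcgcat
ATF1 promoter, segment F, chr12:51158243-51158271, minus strand: aggcgcggaggCCGGAAGcgcgggcggcc
RTTN promoter, segment G, chr18:67872958-67872986, plus strand: ttaatgtacccCCGGAAAcacgtcctgtg

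Each listed peak has a fold enrichment and a -log10 p given by the authors' peak caller, and these determine the reads at its summit and the local background in reads. The lowest background, which is also the most common one, was 0.283 reads in OCI2, 0.526 in VAL1 and 0.278 in VAL2. A stretch with fewer reads than this is still given the lowest value, so that a deficit below it cannot be seen. On the autosomes outside the segments the median background was 0.295, 1.17 and 0.278 reads in the same order. The relative background is the median over the listed peaks of a segment divided by this median of the same library, and its floor is thus 0.959 in OCI2, 0.449 in VAL1 and 1.0 in VAL2. A peak was called passing from a -log10 q of 3 upwards, which corresponds to the FDR of 0.001 in the study's methods.

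Over the 7 segments together the relative background was 1.04 in OCI2, 1.43 in VAL1 and 1.61 in VAL2. The ratio of VAL to OCI-Ly1 was 1.46 ± 0.124 (SD, n = 2 VAL libraries against 1 OCI-Ly1 library). These values are a description, since they chose the segments, and no test was made of them. Above the lowest background of the library lay 95.3% of the listed peaks of VAL2 in the segments and 42.3% outside them. The shares were much closer in VAL1, 91.8 and 87.5%, and in OCI2, 58.3 and 52.8%.

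The segments differed among themselves in size and in shape. Segment G on chromosome 18 had the highest ratio, 1.83 ± 0.266, with relative backgrounds of 0.959 in OCI2, 1.57 in VAL1 and 1.93 in VAL2. Segment E had the second highest, 1.54 ± 0.224, and was the only segment in which OCI2 was itself raised (1.14, against 1.57 and 1.93 in the VAL libraries). Segment B followed with 1.53 ± 0.076, with 0.972, 1.44 and 1.54 in the 3 libraries. In segment D the ratio was 1.48 ± 0.076 (1.0, 1.43 and 1.54), and in segment F it was 1.43 ± 0.003 (1.0, 1.43 and 1.42). Segments C and A had the lowest ratios, 1.38 ± 0.035 (0.959, 1.3 and 1.35) and 1.34 ± 0.126 (0.959, 1.2 and 1.37). In this order E, B, D and F, and likewise C and A, differed from their neighbours by less than the larger SD of the pair. The steps from G to E and from F to C were larger than that. This SD is over 2 VAL libraries set against the same OCI-Ly1 library, so it leaves out the error of OCI-Ly1. Below G the order changed with the setting. With listed peaks of at least 4 reads A had 1.55 and E 1.3, and by medians over 1 Mb bins C had 1.5 and F 1.39.

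In bins of 5 Mb, 32 of 42 bins of the segments had a background at least 1.2 times that of OCI2 in both VAL libraries (76.2%), against 6 of 496 bins on the rest of the autosomes (1.21%). Of these 6, the bin of chromosome 8 from 45 Mb touches segment E (0.959 in OCI2, 2.0 in VAL1 and 2.03 in VAL2), and 4 lie on chromosome 12, starting at 0, 5, 25 and 30 Mb. The last one, from 190 Mb on chromosome 1, lies between segments A and B. The contrast of bins inside and outside the segments restates how the segments were chosen, and it was not tested.

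**Figure D1:**
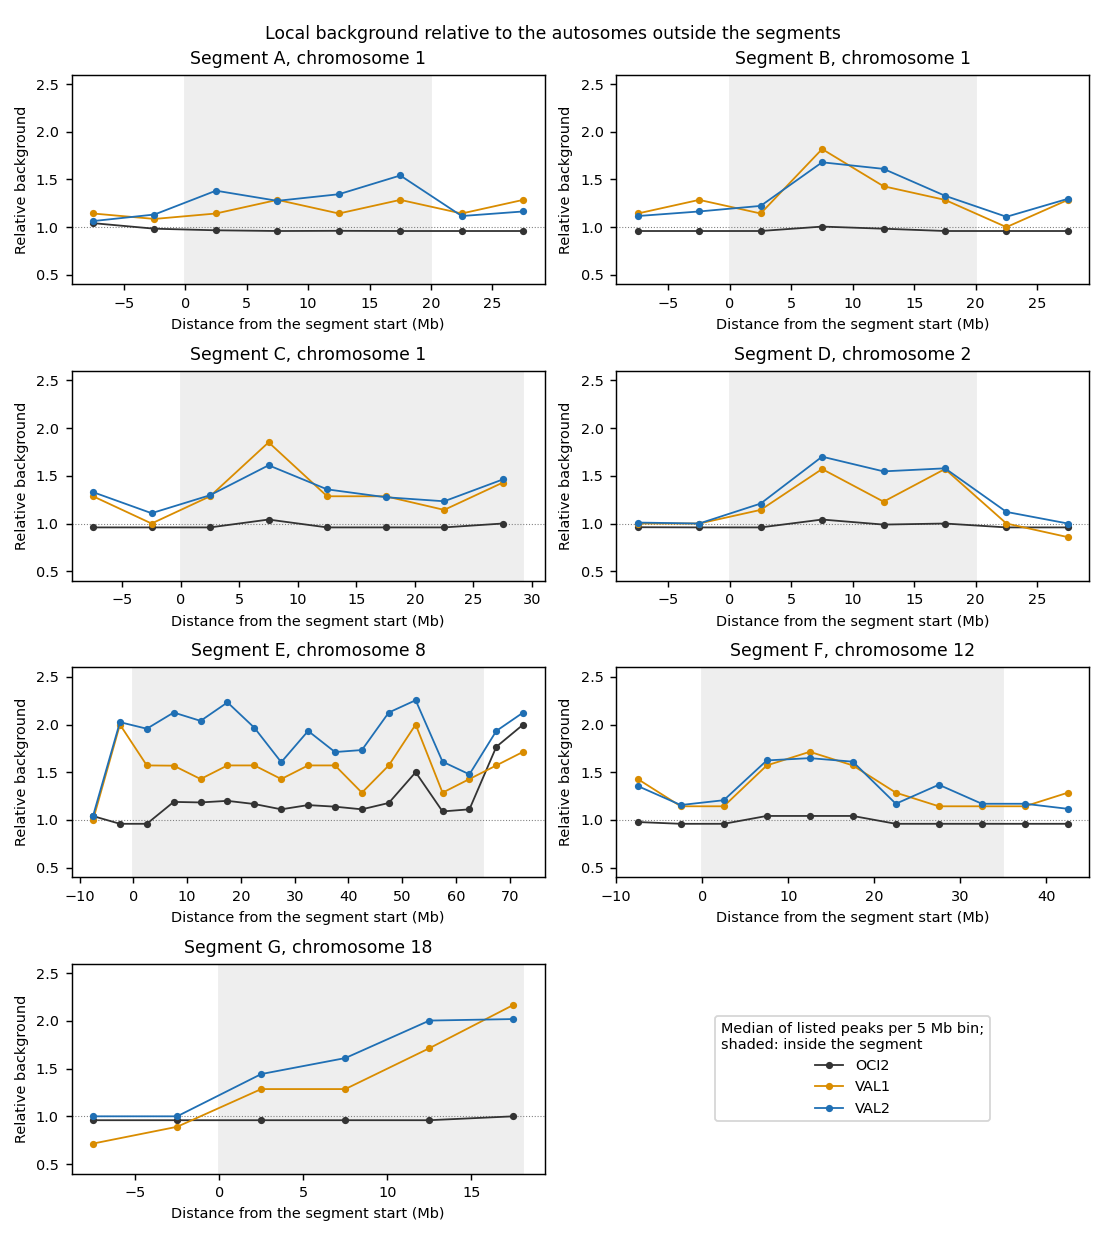
Relative background (median over listed peaks per 5 Mb bin, divided by the median outside the segments) against the distance from the start of each segment in Mb, with the segment shaded and a line for each of the 3 libraries. The VAL lines leave the OCI-Ly1 line at the edges of segments D and G, whereas in segment E the lines meet beyond the end because OCI2 rises to 1.77.

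The values at the edges, just inside and just outside, differed between borders. At the start of segment D the relative backgrounds of OCI2, VAL1 and VAL2 were 0.959, 1.0 and 1.0 in the last bin outside and 0.959, 1.14 and 1.21 in the first bin inside. At its end they went from 1.0, 1.57 and 1.58 inside to 0.959, 1.0 and 1.12 outside. The end of segment E was of another kind. In the last bin inside, the values were 1.11, 1.43 and 1.48, and in the next bin, from 115 Mb, they were 1.77, 1.57 and 1.93, so that the ratio fell to 0.992 while the background of VAL did not fall. No step was seen at the end of segment F, where the bins on both sides had 0.959, 1.14 and 1.17, nor at its start, where they had 0.959, 1.14 and 1.16 outside and 0.959, 1.14 and 1.21 inside. At the start of segment E the VAL libraries were higher in the last bin outside, 2.0 and 2.03, than in the first bin inside, 1.57 and 1.96. The gap between segments B and C, from 215 Mb, had 0.959, 1.0 and 1.11. The gap between A and B had 0.959, 1.14 and 1.12 in the bin from 185 Mb and 0.959, 1.29 and 1.16 in the bin from 190 Mb. The first bin of segment B had 0.959, 1.14 and 1.22, so VAL1 did not rise at this border. In segments B, C, F and G the bin with the highest background in both VAL libraries was also the one with the most passing peaks of VAL2, such as the bin from 225 Mb of segment C, with 1.85 in VAL1, 1.61 in VAL2 and 45 passing peaks. In segments D and E it was not, since the bins with the highest VAL2 background, from 60 and 100 Mb, held 22 and 21 passing peaks and those from 70 and 85 Mb held 35 and 38. In segment A the bin from 180 Mb had the highest VAL2 background (1.54) and the most passing peaks of VAL2 (21). VAL1 had 1.29 both there and in the bin from 170 Mb, which held 7 passing peaks of VAL2. Of the 38 peaks in the bin from 85 Mb of segment E, 30 lay in the 500 kb of REXO1L copies described below. The exception of segment E rests on these copies. The part of the passing peaks in the background was not tested.

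In windows of 100 kb, the background of VAL2 in segment G stepped up at the 3′ end of BCL2. BCL2 (ENSG00000171791, chr18:60790579-60987361, minus strand) codes for the protein that keeps B cells from apoptosis, and it is the gene that the t(14;18) translocation of follicular and germinal center lymphomas joins to the immunoglobulin heavy chain locus. The study describes both lines as carrying a BCL2 translocation, VAL together with a MYC translocation. In the last 100 kb before the 3′ end of BCL2, on the centromere side, the relative background was 1.0 in OCI2 (49 listed peaks), 0.881 in VAL1 (16 peaks) and 1.01 in VAL2 (40 peaks). In the first 100 kb after the 3′ end, which lie within the gene, it was 0.959 (30 peaks), 1.79 (12 peaks) and 2.68 (38 peaks). Over 1 Mb on each side, OCI2 had 0.959 before and after, VAL1 went from 1.14 to 1.57, and VAL2 from 1.02 to 2.26, with quartiles of 1.0 to 1.27 before and of 1.93 to 2.64 after. Farther on, VAL2 declined to 1.26 in the window centred 2.15 Mb after the 3′ end and to 1.34 at 2.35 Mb, and VAL1 had windows down to 0.786. The step was less clear in VAL1, which had 1.43 in the window centred 0.15 Mb before the 3′ end and 1.0 at 0.75 Mb after it. From the start of segment G to BCL2, VAL2 had 1.03, so the first part of the segment as drawn was not raised. From BCL2 to the end of the chromosome it had 1.93, and the bin from 75 Mb had 1.0, 2.17 and 2.02 in the 3 libraries. The windows around BCL2 were laid out from its 3′ end, and were chosen after the values of the genes on both sides had been seen. The cause of this step was not tested.

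**Figure D2:**
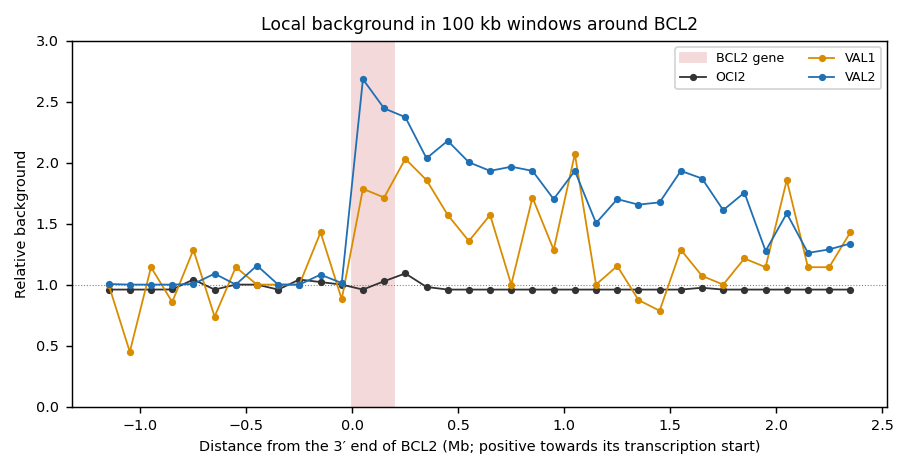
Relative background in windows of 100 kb against the distance from the 3′ end of BCL2 in Mb, positive towards its transcription start and the chromosome end, with the gene shaded and a line for each library. VAL2 steps from 1.01 to 2.68 at the 3′ end of the gene and OCI2 stays between 0.959 and 1.09, while VAL2 then declines to between 1.26 and 1.34 in the last 3 windows and VAL1, which has few listed peaks per window, varies more.

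In the segments, passing peaks were more numerous in VAL2 than in OCI2, and fewer in VAL1. Of all listed peaks, 0.483% passed in OCI2, 0.410% in VAL1 and 0.656% in VAL2. In the segments, 351 peaks passed in OCI2 (0.462% of those listed there), 112 in VAL1 (0.650%) and 660 in VAL2 (1.39%). On the rest of the autosomes the counts were 4897 (0.498%), 816 (0.392%) and 5635 (0.633%). VAL2 had thus 1.88 passing peaks for each 1 of OCI2 in the segments and 1.15 outside, and VAL1 had 0.319 and 0.167. As a share of the sum of both lists, VAL2 had 65.3% in the segments (Wilson 95% interval 62.3 to 68.2%) and 53.5% outside (52.5 to 54.4%). These intervals, like those below, cover counting error only. The count is not independent of the choice of the segments, because the background enters the q-value, although a higher background makes it harder for a peak with given reads to pass.

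Known sequence held 3.20 passing peaks per Mb in VAL2 in the segments and 2.27 outside, and 1.70 and 1.98 in OCI2. Listed peaks were less dense in the segments in VAL2 and OCI2, with 230.3 per Mb in the segments and 359 outside in VAL2, and 368 and 397 in OCI2, whereas VAL1 had nearly the same density in both (83.4 and 84.1). The part of the background in the share of listed peaks that pass was not tested. The fewest reads with which a peak passed were 6 in OCI2, 8 in VAL1 and 6 in VAL2. In VAL2, 15.5% of the passing peaks of the segments had 6 reads (102 of 660), against 31.3% outside.

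For VAL2, segment B had the largest ratio to OCI2, 3.2, with 25 passing peaks in OCI2, 4 in VAL1 and 80 in VAL2, while its ratio for VAL1, 0.16, was the lowest of the 7 and no higher than outside. Segment G followed for VAL2, with 19, 8 and 52 peaks, of which 11, 6 and 32 lay in the last bin, from 75 Mb. Segments A (24, 10 and 46 peaks), C (54, 11 and 107), D (44, 9 and 84) and F (67, 15 and 133) each had 1.91 to 1.99 peaks of VAL2 for each 1 of OCI2. In segment E the ratio was 1.34 (118, 55 and 158 peaks), and its interval for the share of VAL2, 51.4 to 62.9%, held the value outside the segments.

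The count of segment E rests in part on 500 kb of chromosome 8, from 86500001 to 87000000, which hold 9 annotated REXO1L genes, near-identical copies of which 1 is coding. This stretch had 40 passing peaks in OCI2, 30 in VAL1 and 30 in VAL2, with relative backgrounds of 5.84, 16.2 and 10.6, and none of these peaks held the full motif at its summit. Reads cannot be assigned with certainty among such copies. Without it, segment E had 78, 25 and 128 passing peaks (1.64 for VAL2 and 0.321 for VAL1, each per peak of OCI2), and all segments had 311, 82 and 630 (2.03 and 0.264).

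**Figure D3:**
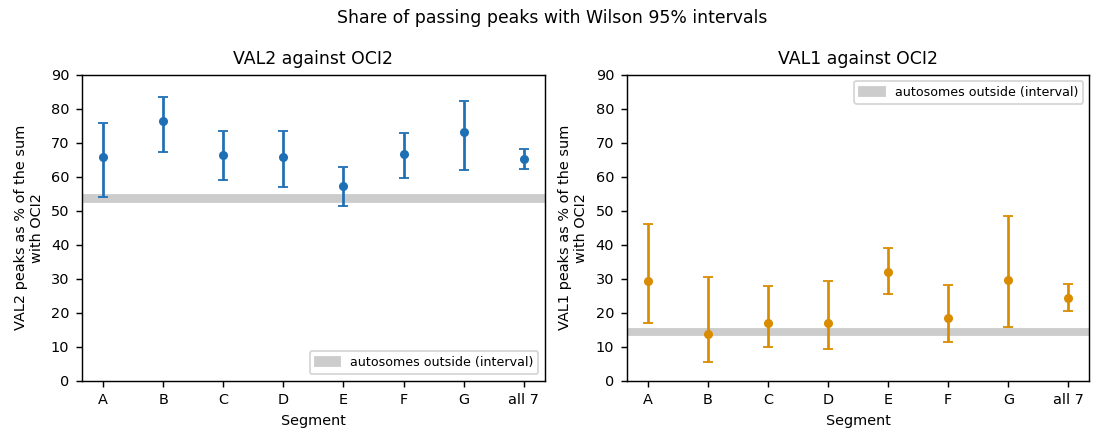
Passing peaks of VAL2 (left) and VAL1 (right) as a percentage of the sum with OCI2, for each segment and for all 7, with Wilson 95% intervals as bars and the interval outside the segments as a grey band. The 7 points of VAL2 lie above the band, from 57.2% in segment E to 76.2% in segment B, and those of VAL1 have wide intervals.

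The reads behind the peaks were compared at the sites that passed in both lines. At the 208 sites of the segments that passed in VAL2 and in OCI2, the median ratio of reads at the summit, VAL2 over OCI2, was 1.16 (quartiles 1.0 and 1.42), and 140 sites (67.3%) had more reads in VAL2. At the 2284 such sites outside the segments the median ratio was 0.909 (0.722 and 1.18) and 36.3% had more. The fold enrichment, which divides by the background, had median ratios of 1.06 (0.892 and 1.27) in the segments and 0.991 (0.80 and 1.24) outside. The median background ratio at the same sites was 1.25 in the segments and 0.876 outside. Nothing is read from the fold staying near 1, since the sites had to pass in both libraries and the segments were chosen for their background, which largely fixes this outcome. For VAL1, 70 sites of the segments had a median read ratio of 2.32 and 535 sites outside had 1.2, with fold ratios of 0.525 and 0.526. Without the REXO1L copies the read ratios were 1.17 over 180 sites for VAL2 and 1.79 over 49 sites for VAL1.

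**Figure D4:**
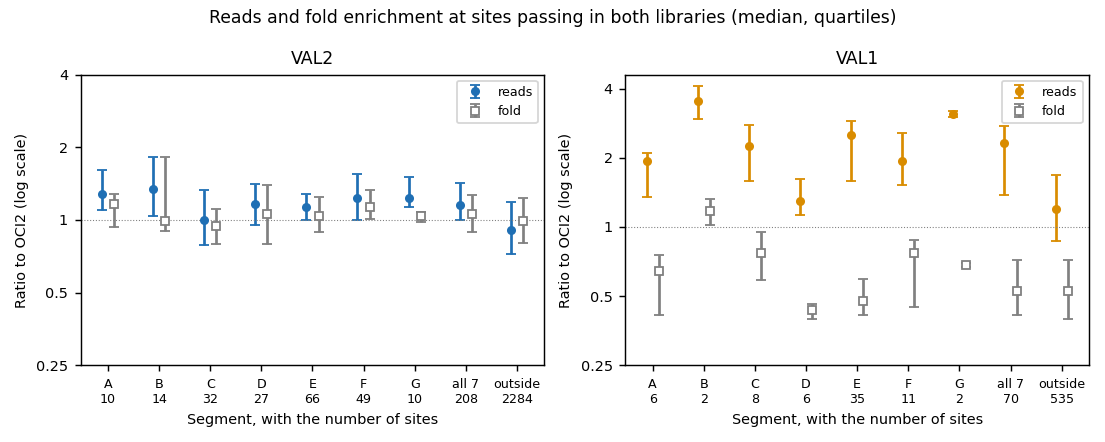
Median ratio to OCI2, on a log scale, of the reads (filled) and of the fold enrichment (open) at sites passing in both libraries, for VAL2 (left) and VAL1 (right), with the quartiles as bars and the number of sites under each segment. Over all 7 segments the read ratio of VAL2 was 1.16 against 0.909 outside, while the fold ratios, 1.06 and 0.991, lay closer together.

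Merging the passing peaks of the 3 libraries gave 819 sites in the segments and 8388 outside. Sites of VAL2 alone made up 53.5% in the segments (438 sites, 50.1 to 56.9%) and 38.9% outside (37.9 to 40.0%). Sites of OCI2 alone made up 16.6% (136 sites, 14.2 to 19.3%) and 30.4% (29.4 to 31.4%). Sites of all 3 libraries were 61 in the segments (7.45%, 5.84 to 9.45%) and 506 outside (6.03%). Of the 351 passing peaks of OCI2 in the segments, 209 overlapped one of VAL2 (59.5%, 54.3 to 64.5%), against 47.2% outside (45.8 to 48.6%). In the other direction, 208 of the 660 peaks of VAL2 overlapped one of OCI2 (31.5%, 28.1 to 35.2%), against 40.8% outside (39.5 to 42.1%).

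Most passing peaks lay in promoters, within 3 kb of an annotated TSS. The share in the segments was 71.2% in OCI2, 56.2% in VAL1 and 62.4% in VAL2, and outside it was 72.0, 66.1 and 68.4%. Without the REXO1L copies the segments had 75.6, 62.2 and 63.3%. Peaks of VAL2 away from promoters were 248 in the segments, the same measure being 101 in OCI2. Segment G had the lowest promoter shares, 47.4% in OCI2, 12.5% in VAL1 (1 of 8 peaks) and 50% in VAL2, and segment F was high in all 3, with 85.1, 80.0 and 76.7%.

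The full ETS motif was found at the summits of the passing peaks of the segments more often than 250 bp away. It lay within 50 bp of 104 of 351 summits in OCI2 (29.6%, against 2.85% in control windows of the same length 250 bp away; two-sided exact McNemar test, adjusted p = 6.70e-23). In VAL1 it lay at 25 of 112 summits (22.3% against 2.68%, adjusted p = 1.05e-05), and in VAL2 at 143 of 660 (21.7% against 2.12%, adjusted p = 2.47e-30, same exact test). The p-values are adjusted over the 3 libraries by the Benjamini-Hochberg method and speak of the peaks of each list, since peaks are not replicates of a line. Outside the segments 35.6, 39.2 and 29.5% of the summits had the motif, with Wilson intervals (34.3 to 37, 35.9 to 42.6 and 28.3 to 30.7%) above those of VAL1 (15.6 to 30.9%) and VAL2 (18.7 to 25%) in the segments. Without the REXO1L copies the segments had 33.4% (28.4 to 38.9%), 30.5% (21.6 to 41.1%) and 22.7% (19.6 to 26.1%), and the interval of VAL1 then overlapped that outside. In VAL2, promoter peaks had the motif at 29.4% of the summits in the segments and 38.8% outside, and peaks away from promoters at 8.87 and 9.37%. Among segments the share in VAL2 ran from 13.8% in B to 32.1% in D.

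The strongest peak of segment A lay at the promoter of METTL18, a histidine methyltransferase gene, with -log10 q values of 67.0 in OCI2, 22.3 in VAL1 and 68.8 in VAL2 (43, 39 and 49 reads). The other strong sites of this segment were at SCYL3 (6.84, 5.58 and 18.3) and ALDH9A1, an aldehyde dehydrogenase gene (12.5, 0.490 and 19.1, below the threshold in VAL1). In segment C the promoter of JMJD4 was the strongest site of all segments in VAL2, with 55.5, 12.2 and 74.0. It did not hold the full motif within 50 bp, unlike METTL18. The promoter of SDE2 in the same segment passed in VAL only, with 1.3 in OCI2 (5 reads), 16.6 in VAL1 (37 reads) and 53.5 in VAL2 (41 reads).

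Some of the strongest sites lay away from coding promoters. In segment B the first was at chr1:203289903-203290557, 2000 bp from a small nuclear RNA pseudogene (RNU6-487P) and 15.6 kb from BTG2, an antiproliferative gene often mutated in lymphoma, with 4.94, 23.9 and 30.9. An intergenic site near PHLDA3 passed in both VAL libraries (6.03 and 24.2) and not in OCI2 (0.875). The coding promoter of UTP25 in the same segment ranked above that intergenic site, with 15.2 in OCI2 and 25.2 in VAL2 and no listed peak in VAL1. In segment D a site at LINC02579, a long noncoding RNA next to SERTAD2, had 57.2, 23.1 and 67.9, and the coding promoter of C2orf42 had 18.5, 6.37 and 30.6. A site in the intron of REL-DT, at chr2:61067928-61068649 and 40493 bp from the start of REL, passed in both VAL libraries (4.82 with 18 reads and 30.6 with 27 reads) and had 1.36 with 4 reads in OCI2.

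In segment E the strongest site was the promoter of UBXN2B (45.0, 31.8 and 62.3), followed by E2F5 and by a narrow site in an intron of SLCO5A1 whose background was 14.5 reads in OCI2 (80 reads, 27.6) and 4.48 in VAL2 (54 reads, 33.9). In segment F they were the promoter of SENP1, a SUMO protease gene, which was the only leading site with its highest value in OCI2 (46.0, 17.7 and 38.4), an intron of FMNL3 (25, 1.22 and 28.8) and the promoter of PRKAG1, a subunit of AMP-activated kinase (5.54, 14.5 and 26.9). In segment G the promoter of KCNG2, a potassium channel gene, passed in VAL2 alone, with 33.8 and 30 reads, against 0.740 and 3 reads in OCI2 and no listed peak in VAL1. A site within NFATC1, the calcium-dependent transcription factor, at 959 bp from the start of a long noncoding RNA, passed in all 3 libraries (4.92, 6.55 and 20.4).

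Genes of B cells, lymphoma and the cell cycle were taken from a list of 190 symbols, of which 183 had their 5′ end in their segment. Within 3 kb of an annotated TSS, a passing peak was found for 45 of the 183 in OCI2 (24.6%), 11 in VAL1 (6.01%) and 81 in VAL2 (44.3%). Of all protein coding genes, 19.0% had one in OCI2, 3.14% in VAL1 and 20.8% in VAL2, and of the 1331 coding genes of the segments 16.6, 4.06 and 26.4%. Nothing particular to the segments is read from the higher share of the list. The list was chosen with earlier results of these data known and was not matched to other genes. Among the 1331 genes, 184 (13.8%, 12.1 to 15.8%) had a passing peak in VAL2 and not in OCI2, against 8.07% outside, and 54 (4.06%, 3.12 to 5.26%) had one in OCI2 and not in VAL2, against 6.83% outside. The strongest peak lay more than 3 kb from the outermost 5′ end, at another annotated start, for 17 of the 81 genes in VAL2 and for 11 of the 45 in OCI2, and the values of a gene in different libraries can belong to different starts. Within 250 kb of the gene, both VAL libraries had a relative background above that of OCI2 at 177 of the 183 genes. This count follows largely from the choice of the segments, and nothing is read from it.

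Several transcription factor genes of the list had a passing peak. POU2F1 in segment A, which codes for the octamer factor OCT1, had -log10 q values of 5.97 in OCI2 (11 reads), 1.3 in VAL1 (6 reads) and 9.11 in VAL2 (12 reads). ELK4 in segment B, itself an ETS factor gene, passed in all 3 libraries, with 4.46, 5.55 and 16.5. ATF1 in segment F did so too, with 9.15, 14.6 and 19.3. These 3 genes had their highest value in VAL2. MYBL1 in segment E, the MYB relative expressed in germinal center B cells, passed in VAL only, with 2.84 (7 reads), 5.17 (20 reads) and 21.7 (23 reads). The opposite order was seen at STAT6 in segment F, the mediator of interleukin 4 signals, with 6.25 in OCI2, 0.70 in VAL1 and 2.12 in VAL2, and at BCL11A in segment D, a zinc finger factor needed for B-cell development, with 6.79, 1.01 and 2.72. IKZF4, an Ikaros family gene in segment F, likewise passed in OCI2 alone (6.19, 0.28 and 1.28). STAT2 passed in VAL1 alone, with 2.89, 4.01 and 1.73. REL in segment D, the NF-kB subunit gene amplified in germinal center lymphomas, did not pass at its promoter in any library (1.49, 0.18 and 2.85).

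Genes of apoptosis and of the p53 pathway followed. BCL2 passed in VAL2 alone, with 5.0 and 10 reads, against 1.61 with 4 reads in OCI2 and 0.07 with 7 reads in VAL1. This peak, chr18:60805368-60805660, lay at an internal annotated start 14.8 kb from the 3′ end of the gene and 181.8 kb from its 5′ end. At the 5′ end itself BCL2 had 1.61 in OCI2 and 1.89 in VAL2, both below the threshold, and no listed peak in VAL1. MDM4 in segment B, the inhibitor of p53, had 21.7 in OCI2 (20 reads), 0.13 in VAL1 (7 reads) and 24 in VAL2 (27 reads), with 3 full motifs within 50 bp of the summit in both. RRM2B, a p53-induced subunit of ribonucleotide reductase, had 7.91, 1.18 and 12.8.

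Among genes of the cell cycle and of DNA repair, E2F5 in segment E had the strongest peak of the list, with 14.6 in OCI2 (16 reads), 12.5 in VAL1 (22 reads) and 57.0 in VAL2 (42 reads), at an internal start 13.0 kb from the 5′ end of the gene. The backgrounds under these peaks were 0.541, 1.67 and 0.592 reads. NBN, a sensor of DNA breaks, had 13.6, 1.84 and 14.2, and FANCL, of the Fanconi pathway, had 7.27, 0.29 and 14.4. CCNE2, a cyclin of the S phase entry, passed in VAL2 alone (2.62, 0.0 and 6.07), as did PARP1 (2.89, 1.03 and 4.91) and EXO1 (2.47, 0.18 and 3.19). RTTN, a centriole gene in segment G, had 2.62, 1.06 and 15.4, and at the summit of VAL2 itself OCI2 had 0.740 with 3 reads. The peaks of PARP1 and EXO1 in VAL2 lay 38.9 and 31.9 kb from the 5′ ends, at internal starts.

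Of the chromatin regulators of the list, some passed in both lines and others, such as KDM5B in segment B (2.62, 0.78 and 2.57), in no library. KMT2D in segment F, a histone methyltransferase often mutated in these lymphomas, passed in all 3 libraries, with 3.68 (10 reads), 4.88 (20 reads) and 9.80 (12 reads). SMARCC2 (4.97, 1.01 and 6.07), SMARCD1 (5.10, 0.18 and 7.95) and ARID2 (3.86, 0.12 and 5.60), subunits of SWI/SNF complexes, passed in OCI2 and VAL2. CDK4 and MDM2, which lie in the same segment, are amplified in many cancers and were named after their values were seen, had no passing peak in any library (1.61, 0.50 and 2.70 for CDK4, and 2.30, 0.33 and 1.68 for MDM2).

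Genes of B-cell receptor and cytokine signalling and of the B-cell surface are given next. LYN in segment E, the kinase of the B-cell receptor, had 3.59 in OCI2 (7 reads), 0.0 in VAL1 (6 reads) and 5.02 in VAL2 (9 reads). PTPRC in segment B, which codes for CD45, did not pass (0.87, 0.12 and 1.69). TRAF5 (1.61, 0.76 and 4.19) and TRAF3IP3 (1.22, 0.04 and 5.47) in segment B passed in VAL2 alone. CD46, a complement regulator of the same segment, had 2.81, 2.92 and 11.9, and so stood just below the threshold in the other 2 libraries. NFATC1 in segment G passed near its 5′ end in VAL2 alone (1.36, 0.76 and 3.84 there), and its gene body held 7 passing peaks in that library and 1 in each of the others. In segment G, 14 of the 22 listed genes passed in VAL2, 5 in OCI2 and 0 in VAL1, while of all 55 coding genes of the segment 21 passed in VAL2 (38.2%), 8 in OCI2 (14.5%) and 0 in VAL1. TSHZ1 and PTGR3 share 1 of these peaks (5.08), and TXNL4A and RBFA another (3.65).

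Further genes of the list that passed in all 3 libraries were LAMC1 in segment A (4.87, 5.68 and 7.42), TOMM20 in C (5.45, 4.84 and 16.0), DGUOK in D (17.4, 13.2 and 7.17) and PRKAG1 in F. DGUOK was highest in OCI2. So were HNRNPU in segment C (13.6, 0.0 and 4.15) and PPP3R1 in D, the regulatory subunit of calcineurin (19.1, 1.29 and 6.07). The reads in OCI2, VAL1 and VAL2 were 15, 29 and 12 at DGUOK, 13, 5 and 7 at HNRNPU, and 16, 14 and 9 at PPP3R1. The -log10 q also depends on the background, and the part of the background in these values was not tested.

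The remaining genes of the list with a passing peak passed most often in VAL2, many of them with values not far above the threshold. In segment A these were TIPRL (1.22 in OCI2, not listed in VAL1 and 7.58 in VAL2) and STX6 (0.87, 1.89 and 3.65). In segment B, PPP1R15B, which helps to reverse the integrated stress response, passed in OCI2 and VAL2 (3.99, 1.81 and 5.97), as did RASSF5. PTPN7 of the same segment, a lymphoid phosphatase, passed in OCI2 alone (3.86, 0.0 and 2.64), and DENND1B in VAL2 alone. In segment C, FH, the fumarate hydratase of the citric acid cycle, had 0.34, no listed peak and 4.87. ITPKB, a kinase of inositol phosphates that is often mutated in lymphoma, had 0.87, 0.07 and 3.39, and LYST, TAF5L and ZNF692 also passed in VAL2 alone, whereas GUK1, ARF1 and NVL passed in OCI2 alone, with 3.35 to 3.59.

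Segment D held several strong shared promoters. SPRED2, an inhibitor of Ras signalling, had 10.6, 1.67 and 15.04, and ACTR2, a subunit of the Arp2/3 complex, had 11.2, 2.39 and 6.82. AAK1 (8.79, 2.79 and 16.4 with 18 reads) and ARHGAP25 (4.46, 0.11 and 12.9) passed in both OCI2 and VAL2, 30.8 and 95.3 kb from their 5′ ends. USP34, CCDC88A, PNPT1, COMMD1 and SERTAD2 passed in VAL2 alone, with 4.10 to 4.87.

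In segment E, NCOA2, a nuclear receptor coactivator, had 4.99, 0.70 and 8.89. TOX, RIPK2, PDE7A, KLF10, COPS5, TRAM1, TERF1, PABPC1 and MTDH passed in VAL2 alone, with 3.04 to 6.37. YWHAZ, STK3 and EIF3E did so in OCI2 alone, with 3.75 to 4.62. In segment F, TESPA1, which acts in lymphocyte receptor signalling, had 10.8, 1.25 and 6.15, and TBK1 and BIN2 also passed in both lines. NR4A1, DDIT3, NACA, NAB2, FRS2 and ITGA5 passed in VAL2 alone, with 3.08 to 6.65. In segment G, VPS4B (5.62, 1.13 and 6.49), ZNF407 (8.10, 1.01 and 9.60), CNDP2 and ADNP2 passed in both lines. CTDP1, a phosphatase of RNA polymerase II, had 1.61, 2.17 and 8.95, and KDSR and MBP passed in VAL2 alone with 3.87 each, while SERPINB8 passed in OCI2 alone (3.82, 0.55 and 2.73). The other 90 genes of the list had no passing peak in any library, among them PTPRC and REL.

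**Figure D5:**
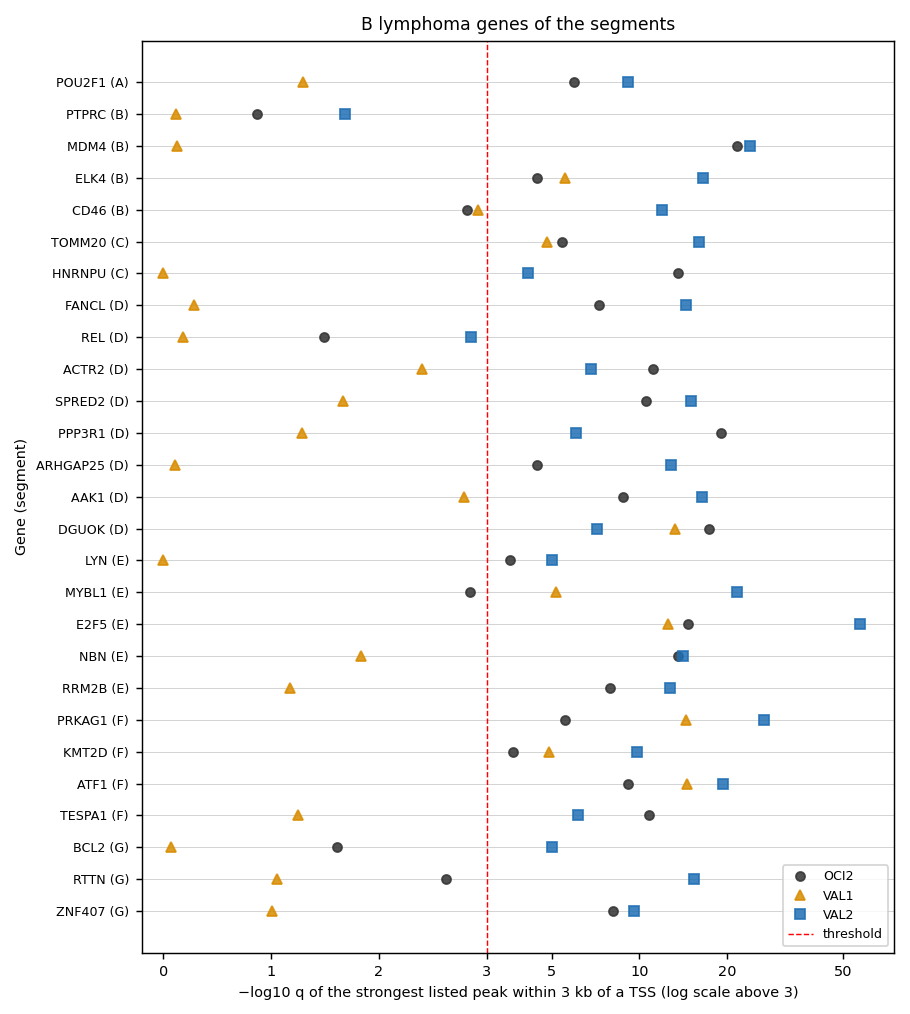
-log10 q of the strongest listed peak within 3 kb of a TSS (log scale above 3) for 27 of the listed genes that reached 9 in a library or were added for their role in B cells (BCL2, REL, LYN, PTPRC, KMT2D and POU2F1), with the segment in brackets, a symbol for each of the 3 libraries and the threshold of 3 as a dashed line. E2F5 in VAL2, at 57.0, lies farthest to the right, and VAL1 lies left of the threshold at most genes.

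The peaks of the segments next to the threshold show how close calls were. In OCI2 the weakest passing peak, at CFAP36, had a -log10 q of 3.06 with 7 reads, and the strongest that failed, at IKBKE, had 2.99 with 6 reads. In VAL1 the values were 3.001 with 14 reads and 2.997 with 13 reads, both at intergenic sites of chromosome 18. In VAL2 they were 3.003 with 6 reads, an intergenic site near DENND1B, and 2.996 with 7 reads, an intergenic site on chromosome 8. Reads and background both entered these close calls, and a gene that passed in 1 library and had a value between 2 and 3 in another is not shown to differ between the lines.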

How the data were processed

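FLI1 ChIP-Seq peak lists of 3 libraries were used (OCI2, VAL1 and VAL2), grouped by the submitters' labels. The segments, gene list and members were chosen with earlier results of these data known. Per the labels, reads were aligned with BWA after CASAVA 1.4 to hg19, whereas the study's methods name bowtie2 and HOMER. The lists have the columns of a narrowPeak file, and the caller, its control and its settings are not given in the sources used here. The authors deposited, for each peak, a score, a fold enrichment (a ratio), a -log10 p and a -log10 q, none of which was recomputed. Total reads per library are not in the lists, so depth is known only through the reads at each summit.

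Reads n at the summit and background λ were solved from the fold, taken as (n + 1)/(λ + 1), and the -log10 p, taken as the Poisson probability of more than n reads. Whole reads that matched both values within about the rounding of the lists were found for all but 20, 10 and 10 peaks, none of these in the segments, and the solution was tested on simulated data. Peaks are called passing at a -log10 q of at least 3. Promoters are within 3 kb of a TSS of GENCODE v44lift37 on GRCh37, from which sequences were read. The motif (CCGGAAA or CCGGAAG, both strands) was counted within 50 bp of summits and 250 bp away and compared by an exact McNemar test. Overlap of 1 bp counted as shared. Named are the listed genes with a passing peak in any library, 7 genes of B cells chosen as anchors, the 3 strongest sites of each segment by -log10 q, and the peaks next to the threshold, except that a few of these genes are not reported here. Versions were scipy 1.17.1 and statsmodels 0.14.6 (statistics), pandas 2.3.3 with numpy 2.4.6 (tables) and Python 3.11.15.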

Additional observations from a re-analysis of the deposited data

How the results depend on the processing

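No paired analysis was possible because only 1 library of OCI-Ly1 could be used, so the groups share fewer than 2 replicate numbers. The ratio of backgrounds in VAL and OCI-Ly1 over the 7 segments, 1.46, was 1.37 to 1.55 with either VAL library left out and 2.21 when each library was scaled by its most common background. The rise to 2.21 came from VAL1, which went from 1.43 to 3.18, while VAL2 stayed at 1.61. In VAL1 the median background outside the segments, 1.17 reads, was itself well above the most common one, 0.526. The 56 alternatives for single segments all stayed above 1, from 1.23 to 2.72, the highest with scaling by the most common background. The order of the segments below G changed among them. The 1123 passing peaks became 503 at a -log10 q of at least 5. The share of VAL2 peaks shared with OCI2, 31.5%, was 19.8% with an overlap of 50% of both peaks, 23.6% by summits and 80.9% when any listed peak counted. The promoter share, 64.6% over the 3 libraries, was 53.7% within 1 kb and 76.1% at a -log10 q of at least 5. With GGAA in place of the full motif, the excess at summits was 8.04 percentage points in VAL1 (exact McNemar test, adjusted p = 0.233), 10.5 in OCI2 (0.00597) and 6.36 in VAL2 (0.0192). Leaving out the REXO1L copies was chosen after seeing the data. No direction was reversed. With 1 usable OCI-Ly1 library no difference between the lines has a replicate check.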
